A study of Mus musculus with 42 samples.

Results

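The comparison described here asks what the loss of 1 working copy of Hoxd9, Hoxd10 and Hoxd11 adds in the mouse uterus when Hoxa9, Hoxa10 and Hoxa11 are already missing. It set the 3 uterus arrays of the genotype written Hoxa9,10,11-/-d9,10,11+/- (called AKDH in the labels) against the 3 uterus arrays of Hoxa9,10,11-/- (called AKO), which gives 6 of the 42 arrays of the series and all 19938 genes measured by probe sets with 1 gene symbol. Both groups carry the triple Hoxa mutation on both chromosomes. They differ by the mutant Hoxd copy, and no control with that Hoxd copy alone was used here. The other 9 uterus arrays were wild type (WT), Hoxd9,10,11-/- (DKO) and Hoxa9,10,11+/-d9,10,11-/- (AHDK), 3 each, and they served to estimate the spread and as reference values. Vas deferens arrays of the AKO and AKDH genotypes, 3 each, came from males and gave the same genotype contrast in other animals. All mice were adults of 3 to 7 months on a mixed CD1/129 background, the females were collected in diestrus, and each array is labelled a biological replicate. Whole organ RNA was measured, so fewer cells of a type and less RNA per cell cannot be told apart.

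As background, the Abd-B type Hox genes of groups 9 to 11 are homeodomain transcription factors that pattern the caudal part of the Müllerian and Wolffian ducts. Hoxa10 and Hoxa11 are needed for uterine identity, stromal proliferation and implantation, and Hoxa11 also for gland formation. The paralogous Hoxd genes overlap with them in function, so that phenotypes of the Hoxa mutants deepen when Hoxd copies are removed as well. The mutations are known from the study as frameshifts in the coding sequence, carried in every cell of the animal. Transcripts can still be made from such alleles, so a probe set need not report the mutation. Where a probe set lies within its gene is unknown here.

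No gene passed the test between AKDH and AKO uterus. Limma called 0 of 19938 genes (0% called) at an adjusted p below 0.05, and the smallest adjusted p was 0.101. At an unadjusted p below 0.05 there were 2063 genes (10.3%), 948 higher in AKDH (4.75%) and 1115 lower (5.59%). The 3 AKDH values did not overlap the 3 AKO values in 1023 genes that were higher (5.13%) and 1545 that were lower (7.75%). The median difference over all genes was -0.02 on the log2 scale, 8555 genes (42.9%) lay above 0, and only 121 genes differed by 1 or more. The median standard error (SE) of a difference was 0.115, so the precision is set by 3 arrays a group. Values are log2 values relative to the median of the 21 female arrays, so 0 means the middle female array and not absence.

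Single arrays bear on these results. AKDH replicate 1 had the lowest mean of all 15 uterus arrays for the smooth muscle list (-0.70) and for the uterine stroma list (-0.44), and the highest for the urothelium list (1.18). Leaving it out, 0 genes were called as well, and values without it stand beside many, though not all, of those it moved. The count of 0 became 167 when AKO replicate 3 was left out, 32 for AKDH replicate 2 and 4 for AKDH replicate 3. As a check of the labelled organ, Sntn and Stoml3, genes of the motile cilia of the oviduct, lay between -0.40 and 0.05 in AKO and AKDH uterus, whereas WT oviduct gave 5.48 to 6.55.

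**Figure D1:**
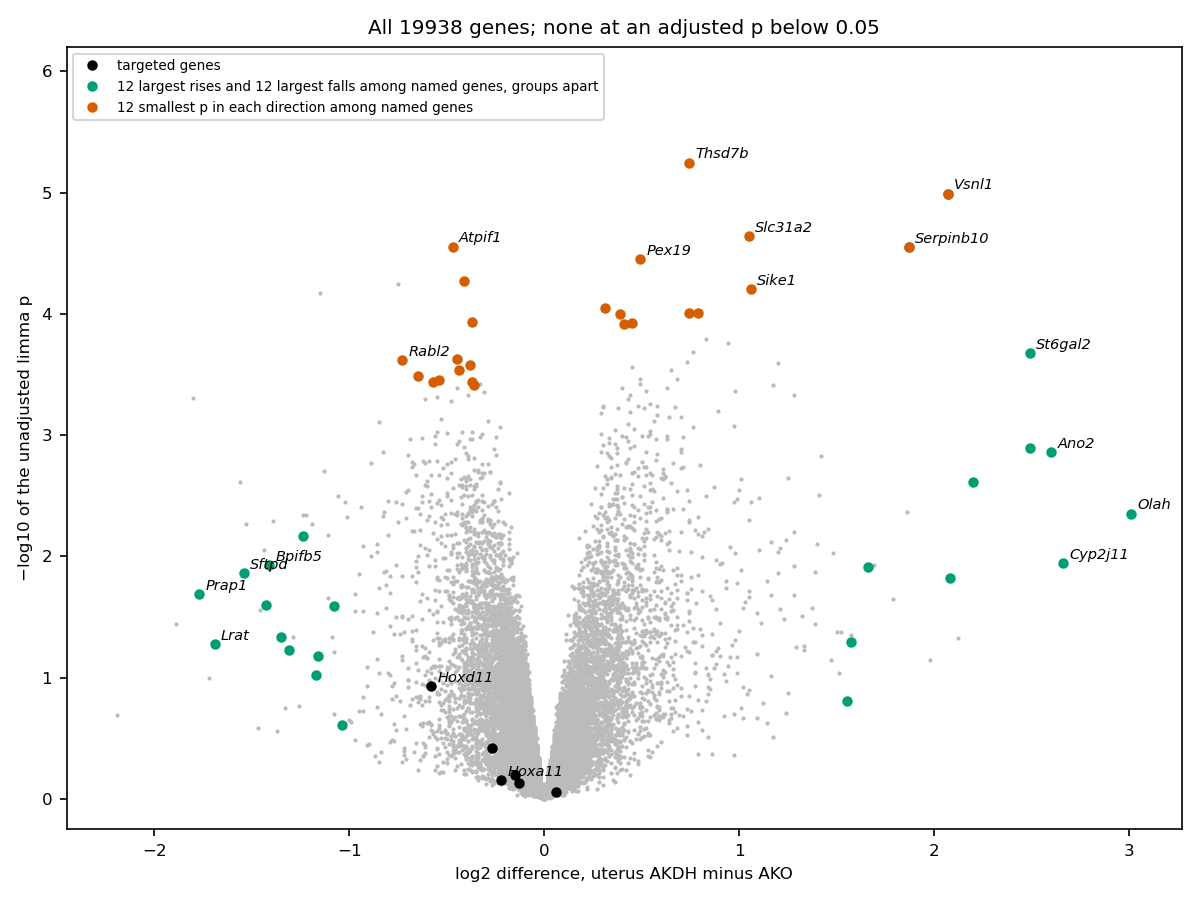
Each point is 1 of 19938 genes, with the log2 difference of AKDH minus AKO uterus on the x axis and the −log10 of its unadjusted limma p on the y axis. Thsd7b and Vsnl1 stand highest, the 6 targeted genes (black) lie near the bottom, and none has an adjusted p below 0.05.

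The 6 targeted genes did not separate the groups in uterus. Hoxd11 had the largest difference of the 6, with values of -0.03, 0.51 and 0.30 in AKO and -1.11, -0.06 and 0.23 in AKDH, against 1.02, 0.36 and 1.19 in WT. The groups overlapped, and the difference of -0.58 (SE 0.34) had an unadjusted p of 0.117 and an adjusted p of 0.61. Hoxd9 differed by -0.27 (SE 0.30) and Hoxd10 by -0.15 (SE 0.31). The Hoxa genes, mutant in both groups, differed by -0.13 (Hoxa9), 0.06 (Hoxa10) and -0.22 (Hoxa11). In each of the 6 genes AKDH replicate 1 was the lowest AKDH array. Without that array the differences of Hoxd9 and Hoxd10 were 0.12 and 0.34, and that of Hoxd11 was -0.18. Those of Hoxa9, Hoxa10 and Hoxa11 were then 0.45, 0.68 and 0.20. The differences of the Hoxd genes were thus within the spread between arrays. Hoxa11 was 2.75, 1.23 and 2.19 in WT, and all AKO and AKDH values (-1.59 to 0.67) lay below them. In vas deferens Hoxd9 differed by -0.28 (SE 0.08, limma adjusted p = 0.132) and Hoxd11 by -0.42 (SE 0.17, adjusted p = 0.3). Both were lower in AKDH without overlap, as were 14.3% of all genes in that tissue, and neither was called. Hoxd10 (-0.02, SE 0.23) and the Hoxa genes overlapped there.

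Other Hox genes gave few differences. Of the 15 untargeted HoxA and HoxD genes, 11 lay above 0, with a median of 0.07 (0.16 without AKDH replicate 1). Hoxd13, the most caudal gene of the cluster that carries the extra mutation, was -0.12, -0.06 and 0.02 in AKO and 0.20, 0.14 and 0.17 in AKDH, a difference of 0.22 (SE 0.07, limma adjusted p = 0.295) with no overlap. The 18 HoxB and HoxC genes had a median of -0.02 (-0.08 without AKDH replicate 1). Hoxc8 was 0.00, 0.32 and -0.06 in AKO and 0.04, 0.73 and 1.17 in AKDH, a difference of 0.56 (SE 0.23, adjusted p = 0.424) with overlapping groups, and of 0.86 without AKDH replicate 1. Hoxc9 differed by 0.46 (SE 0.24), and by 0.84 without that array. The 457 measured genes within 20 Mb of Hoxd11 were not set apart: 26 (5.69%) had an unadjusted p below 0.05, against 10.3% of all genes.

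The 12 genes with the smallest p in each direction were led by Vsnl1, a neuronal calcium sensor of the visinin family, and Thsd7b. Vsnl1 was -0.84, -0.34 and -0.02 in AKO and 1.98, 1.35 and 1.66 in AKDH. The groups stood far apart, by 2.07 on the log2 scale (SE 0.29, 95% confidence interval 1.44 to 2.69, limma adjusted p = 0.101). WT (-0.70, -0.92 and -0.86), DKO (-0.97, -0.55 and 0.00) and AHDK (-0.20, -0.73 and 0.16) all lay with AKO, so AKDH was the high group of the 5 genotypes. Thsd7b, which encodes a thrombospondin type repeat protein, differed in the same direction by less. Its values were -0.13, 0.09 and 0.00 in AKO and 0.86, 0.63 and 0.69 in AKDH, a difference of 0.74 (SE 0.10, adjusted p = 0.101), and the 9 other uterus arrays lay between -0.34 and -0.02. The limma adjusted p of Vsnl1 and of Thsd7b, 0.101, was above the threshold of 0.05, and a threshold of 0.1 also called 0 genes. In 15 alternative fits, Vsnl1 passed the threshold of 0.05 in 6 and Thsd7b in 5. For both genes these included the fits without AKDH replicate 2 and without AKO replicate 3. AKDH replicate 2 was the lowest AKDH array for both genes, and AKO replicate 3 the highest AKO array for Vsnl1. Leaving such an array out widens the difference. With the 6 compared arrays alone the smallest limma adjusted p of any gene was 0.6. Both genes were picked by their p, so nothing is read from these counts.

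The promoters of Thsd7b and Vsnl1 are shown because these genes, not called, had the smallest p between AKDH and AKO. That of Rxfp2, described below, is shown because Rxfp2 was called lower than WT in both AKO and AKDH. Each is the 250 bases before the RefSeq start site (GRCm38.p6), 5′ to 3′ on the strand of the gene, with matches to any motif searched, or to its reverse complement, in capitals. RefSeq also lists another start for Vsnl1.
Thsd7b, chr1:129273054-129273303, forward strand: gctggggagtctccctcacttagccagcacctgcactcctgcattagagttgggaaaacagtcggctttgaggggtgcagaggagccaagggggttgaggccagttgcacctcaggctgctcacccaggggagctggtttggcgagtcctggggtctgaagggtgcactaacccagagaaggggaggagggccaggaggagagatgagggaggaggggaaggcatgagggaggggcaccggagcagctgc
Vsnl1, chr12:11436579-11436828, reverse strand: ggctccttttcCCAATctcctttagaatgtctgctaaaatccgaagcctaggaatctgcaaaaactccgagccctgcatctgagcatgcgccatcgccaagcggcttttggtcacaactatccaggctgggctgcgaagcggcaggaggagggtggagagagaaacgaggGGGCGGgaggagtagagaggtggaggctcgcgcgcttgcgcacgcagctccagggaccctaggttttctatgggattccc
Rxfp2, chr5:150018425-150018674, forward strand: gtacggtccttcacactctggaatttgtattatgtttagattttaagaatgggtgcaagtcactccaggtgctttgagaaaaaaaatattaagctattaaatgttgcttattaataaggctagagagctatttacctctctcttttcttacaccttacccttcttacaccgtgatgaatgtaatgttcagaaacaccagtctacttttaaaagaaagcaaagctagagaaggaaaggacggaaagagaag
The motifs searched, on both strands, were the Hox-type TTTACGA, the Hox-type TTTATTG, the TATA box TATAAA, the GC box GGGCGG and the CCAAT box, none of which contains another. The Vsnl1 window held 1 GC box and 1 CCAAT box, and the other windows shown held no match. Of 32851 promoter windows of this length, 0.478% held TTTACGA, 4.2% held TTTATTG, 12.4% held TATAAA, 32.7% held GGGCGG and 33.8% held CCAAT. Among the 24 genes made up of the 12 with the smallest p in each direction, 18 had 21 windows in the table, of which 0 held either Hox-type motif, 9 held GGGCGG and 5 held CCAAT.

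Further genes were higher in AKDH without overlap. Slc31a2, a copper transporter of endosomes and lysosomes, was -0.60, 0.01 and -0.01 in AKO and 0.70, 0.79 and 1.05 in AKDH, a difference of 1.05 (SE 0.16, limma adjusted p = 0.112). Serpinb10, an intracellular protease inhibitor, was -0.58, -0.47 and -0.22 in AKO and 2.06, 1.42 and 0.85 in AKDH, a difference of 1.87 (SE 0.29, adjusted p = 0.112). Over the other uterus arrays the highest value was 0.28 for Slc31a2 and 0.73 for Serpinb10, below all AKDH values of each gene. Gbp8, an interferon-inducible GTPase, differed by 0.79 (SE 0.14) and was also lower in every other array (at most 0.13) than in AKDH (at least 0.60). Smaller differences were found in Pex19 (0.49, the import receptor of peroxisomal membrane proteins), Alg11 (0.74, an N-glycan mannosyltransferase), Rpl38 (0.39, a ribosomal protein), Ess2 (0.31, a spliceosome-associated protein), Zfp740 (0.45, a zinc finger protein) and Anxa5 (0.41, annexin A5). Sike1, a suppressor of IKK-epsilon signalling, differed by 1.06 (SE 0.18). The adjusted p-values of these 7 lay between 0.118 and 0.14.

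The 12 genes with the smallest p among those lower in AKDH differed by -0.36 to -0.73. Atpif1, the inhibitor of the mitochondrial ATP synthase, was 0.18, 0.09 and -0.07 in AKO and -0.39, -0.45 and -0.36 in AKDH, a difference of -0.47 (SE 0.07, limma adjusted p = 0.112). Sdhaf3, an assembly factor of succinate dehydrogenase, differed by -0.41 and Tmem223, a mitochondrial membrane protein, by -0.57. The proteasome core subunits Psma1 and Psma3 differed by -0.45 and -0.38, the prefoldin subunit Pfdn2 by -0.37 and the Sm protein Snrpd1 by -0.65. Rabl2 (a ciliary GTPase) was lower by -0.73, Cenpv (a centromere-associated protein) by -0.44, Adcy4 (an adenylyl cyclase) by -0.54, Pdcd6 (a calcium-binding protein) by -0.37, and Gxylt1 (a xylosyltransferase that modifies Notch) by -0.36. In all 12 the groups did not overlap, and adjusted p-values ran from 0.112 to 0.189. These 24 genes were chosen by their p-value, so their separation is a description. All 24 kept their direction without AKDH replicate 1.

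**Figure D2:**
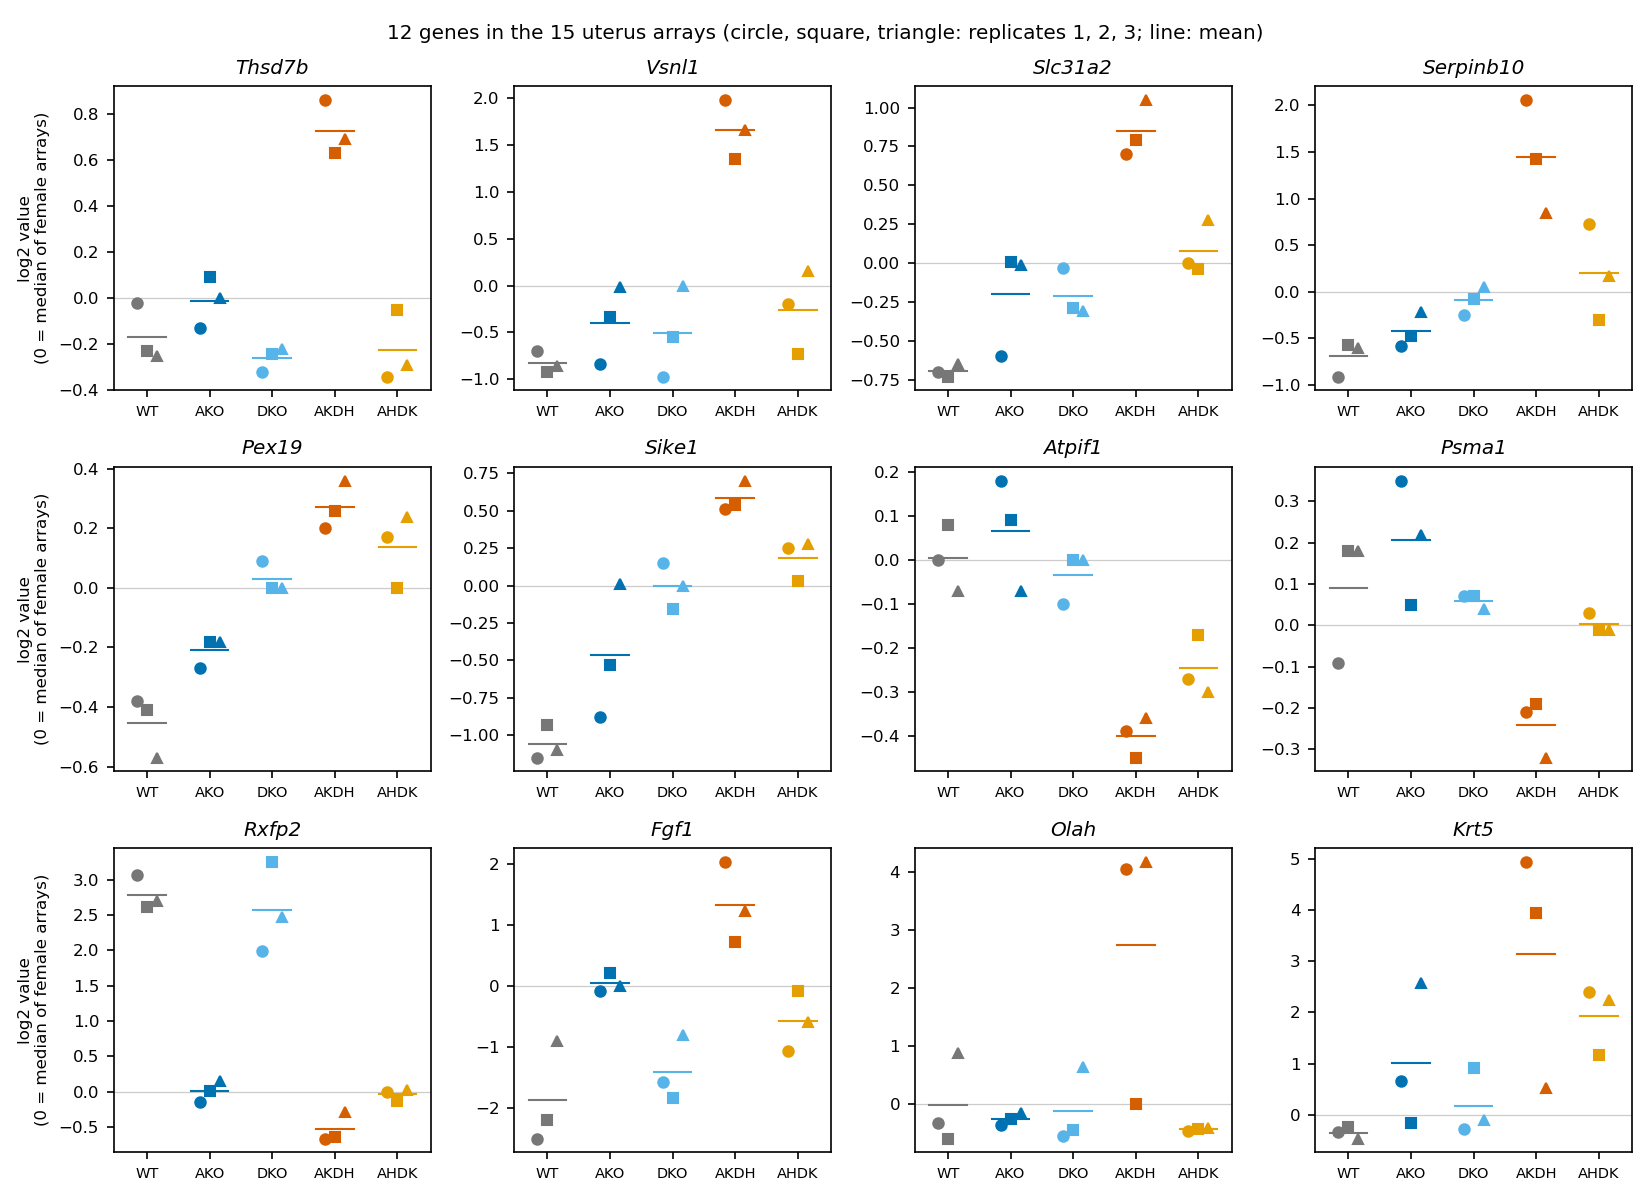
Each panel shows the log2 values of 1 gene in the 15 uterus arrays by genotype, 0 being the median of the female arrays; circles, squares and triangles are replicates 1, 2 and 3 and the line is the mean. Vsnl1 and Thsd7b are high only in the 3 AKDH arrays of the 15, Pex19 and Sike1 are also above WT in DKO and AHDK, Rxfp2 is low in AKO, AKDH and AHDK, Olah is high in 2 AKDH arrays, and Krt5 is highest in AKDH replicates 1 and 2 and also high in AKO replicate 3 and AHDK.

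The same contrast in the vas deferens, which derives from the Wolffian duct, came from other animals and shared no array with the uterus. It called 258 genes (1.29%), 89 higher (0.446%) and 169 lower (0.848%). Of the 24 uterine genes named above, 21 differed in the same direction in vas deferens and 9 were called there, all 9 in the uterine direction. These were Pex19 (0.49 in both tissues, vas adjusted p = 0.0182), Sike1 (0.55, adjusted p = 0.0367) and Alg11 (0.40, adjusted p = 0.0468) among the higher genes. Among the lower genes they were Atpif1, Sdhaf3, Pfdn2, Psma1, Tmem223 and Gxylt1, with vas differences from -0.27 to -0.45. Vsnl1 was not among them: its vas values were -0.34, 0.01 and 0.09 in AKO and 0.26, 0.00 and 0.05 in AKDH. Thsd7b differed by -0.26 in vas deferens (adjusted p = 0.2), opposite to the uterus. Serpinb10 (-0.23) and Gbp8 (-0.07) also did not follow.

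Counts over all genes were as follows. Of the 1023 genes that were higher without overlap in AKDH uterus, 241 (23.6%) were also higher without overlap in AKDH vas deferens, where 6.03% of all genes were, and 53 (5.18%) were lower there. Of the 1545 lower genes, 385 (24.9%) were lower in vas deferens, where 14.3% of all genes were, and 47 (3.04%) were higher. Seen from the other tissue, the shared genes made up 20% of 1203 higher and 13.5% of 2860 lower vas genes. Of the 89 genes that rose in vas deferens, 51 (57.3%) were higher without overlap in uterus, against 5.13% of all genes, and 0 were lower. Of the 169 that fell, 51 (30.2%) were lower in uterus, against 7.75% of all genes, and 4 (2.37%) were higher. The vas count of 258 was 1021 with array weights and 0 with the 6 arrays alone. Without 1 vas array it was 52 (AKDH replicate 1), 191 (AKDH replicate 2), 240 (AKDH replicate 3), 72 (AKO replicate 1), 88 (AKO replicate 2) or 56 (AKO replicate 3). Neither the labels nor the table give a scan date or hybridisation batch, so a batch shared by both tissues was not tested.

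**Figure D3:**
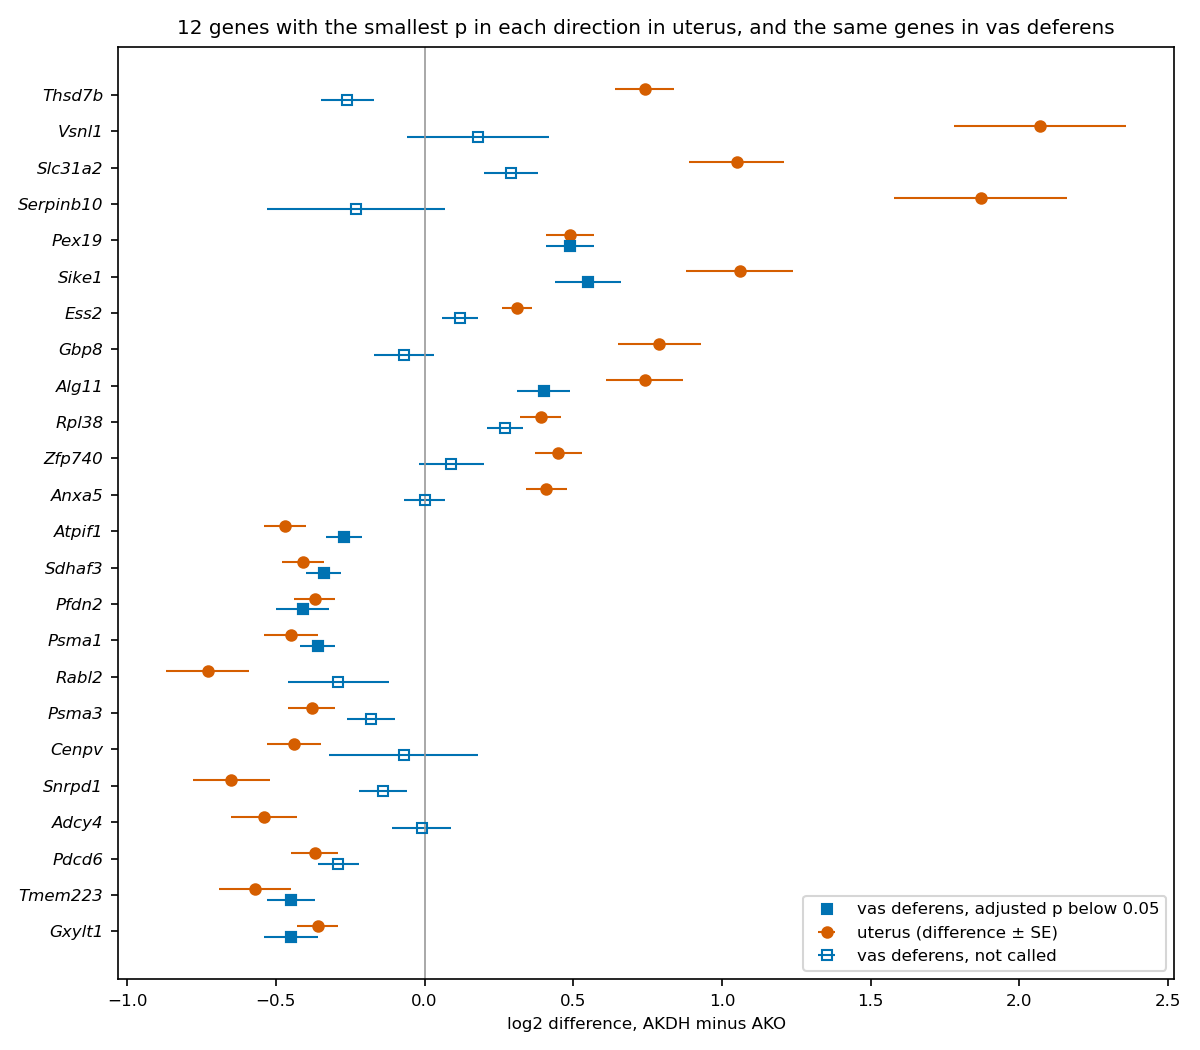
Each row is 1 of 24 genes, the 12 with the smallest p in each direction in uterus, with the log2 difference of AKDH minus AKO (± SE) in uterus (circles) and vas deferens (squares, filled where the adjusted p is below 0.05). The 9 filled squares all lie on the side of the uterine value, and Thsd7b, Serpinb10 and Gbp8 (all open squares) lie on the other.

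Several of these shared genes were not particular to the AKDH genotype. In 142 genes (0.712% of 19938) the 9 uterus arrays with a mutant Hoxd copy (DKO, AKDH and AHDK) lay wholly above or below the 6 without one (WT and AKO), and 392 genes (1.97%) did so in vas deferens. There were 22 genes that separated in the same direction in both tissues, 15.5% of the uterine and 5.61% of the vas genes, and 0 in opposite directions. Pex19 and Rpl38 were 2 of the 22. Pex19 had uterine means of -0.45 in WT and -0.21 in AKO, and of 0.03, 0.27 and 0.14 in DKO, AKDH and AHDK. Rpl38 had means of -0.08 and -0.13 without a mutant Hoxd copy and 0.30, 0.26 and 0.24 with one. Others of the 22 were Cnpy2, Psmd2, Sae1, Septin2 and Inafm2, all higher, and Naca and Rnf25, both lower. The separated genes did not gather at the Hoxd cluster: 4 of the 457 genes within 20 Mb (0.875%) separated in uterus and 1 (0.219%) in vas deferens. Of the 24 genes named by their p, 6 separated in uterus, namely Pex19, Ess2, Rpl38, Anxa5, Cenpv and Gxylt1. Vsnl1, Thsd7b, Slc31a2, Serpinb10 and Gbp8 did not. The comparison of 9 with 6 arrays was added after the data were seen, and the cause of the separation was not tested.

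A list of 20 genes was taken from an earlier reading of these same arrays against WT. It includes genes chosen for AKDH against WT, so it is not independent evidence of a direction. Of the 20, 9 passed the test in AKO against WT and 19 in AKDH against WT. Both genotypes were set against the same 3 WT arrays. AKO against WT called 18 genes (0.0903%) and AKDH against WT called 1311 (6.58%). The AKDH count was 1 when the mean of 360 small RNA genes entered the fit. That mean was itself higher in all WT arrays (0.28, 0.20 and 0.23) than in all AKDH arrays (-0.01, -0.07 and -0.07). Such a fit cannot separate genotype from small RNA level, so nothing is read from its count. Without 1 array the AKDH count was 783 (AKDH replicate 1), 1207 (AKDH replicate 2), 530 (AKDH replicate 3), 950 (WT replicate 1), 639 (WT replicate 2) or 686 (WT replicate 3). The AKO count was 8 with the small RNA mean and lay between 2 (without AKO replicate 1) and 40 (without WT replicate 1). A larger number of calls is not a test of the added copy, and between AKDH and AKO 0 of the 20 genes were called, 11 being above 0 and 9 below.

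Receptors, enzymes and transcription factors that were low in the mutants come first. Rxfp2, the receptor for the relaxin-related hormone Insl3, had WT values of 3.06, 2.61 and 2.69. Its AKO values were -0.15, 0.01 and 0.16 and its AKDH values -0.66, -0.64 and -0.29. It fell in both mutants (-2.78, limma adjusted p = 0.00187, and -3.32, adjusted p = 0.000149), and the AKDH values lay just below those of AKO, by -0.53 (SE 0.25, adjusted p = 0.487). In DKO it was 1.99, 3.25 and 2.47, near WT, and in AHDK it was 0.00, -0.13 and 0.03. Robo2, a receptor of Slit guidance molecules, differed from WT by -2.61 in AKO (limma adjusted p = 0.0218) and -2.83 in AKDH (adjusted p = 0.00238), and between the mutants by -0.22 (SE 0.35; -0.05 without AKDH replicate 1). Aldh1a2, which makes retinoic acid, differed by 0.15 (SE 0.23), Lef1, a nuclear effector of Wnt signalling, by -0.21 (SE 0.31), Eya1 by -0.12 (SE 0.22), Hand2, a progesterone-dependent stromal factor, by -0.07 (SE 0.34) and the anion transporter Slc26a7 by -0.03 (SE 0.39). Without AKDH replicate 1 these 5 differences were 0.00 (Aldh1a2), -0.08 (Lef1), -0.04 (Eya1), 0.22 (Hand2) and 0.00 (Slc26a7). The 95% confidence interval of Hand2, from -0.81 to 0.66, spans sizeable differences in either direction. Tnfaip6, a hyaluronan-binding protein, was -0.76, -0.46 and -0.26 in AKO and 0.13, -0.11 and 0.00 in AKDH, nearer to WT (0.50 to 1.16) by 0.50 (SE 0.19). Dio2, the enzyme that activates thyroid hormone, differed by -0.64 (SE 0.42), and by -0.25 without AKDH replicate 1.

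Of the growth factor genes that lay above WT in AKO, Fgf1 was higher still and Fgf16 lower in AKDH, neither past the test. Fgf1 was -0.08, 0.21 and 0.00 in AKO and 2.03, 0.72 and 1.23 in AKDH, against -2.50, -2.19 and -0.90 in WT. Its difference from AKO was 1.28 (SE 0.43, limma adjusted p = 0.325) with no overlap, and in vas deferens it was 1.30 (adjusted p = 0.0833), also with no overlap. Fgf16 went the other way, from 1.13, 0.99 and 1.42 in AKO to 0.50, 0.74 and -0.15 in AKDH, a difference of -0.82 (SE 0.23, adjusted p = 0.254). Fgf18 differed by 0.07 (SE 0.13, 95% confidence interval -0.21 to 0.36), and by -0.04 without AKDH replicate 1. Sfrp1, a secreted Wnt inhibitor, was -0.87, -0.49 and -0.65 in AKO and -0.38, 0.00 and -0.03 in AKDH, a difference of 0.53 (SE 0.15). Wnt2b differed by 0.51 (SE 0.28), the neuroendocrine membrane protein gene Rtn1 by 1.14 (SE 0.41), Lrrc26, a subunit of potassium channels, by 0.77 (SE 0.42) and Hoxc10 by 0.16 (SE 0.29). Upk1a, a urothelial membrane protein, differed by -0.70 (SE 0.40), and by 0.07 with the small RNA mean in the fit. Without AKDH replicate 1, Lrrc26 was at 0.35, Hoxc10 at 0.56 and Upk1a at -1.20. Meig1, a gene of male germ cells, differed by 2.49 (SE 0.60). It was on the list through AKDH alone, since its AKO minus WT value was 0.11 (limma adjusted p = 0.981). Of the 20 genes, 5 (25%) were higher and 2 (10%) lower without overlap, against 5.13% and 7.75% of all genes. Since the list was chosen in part on the AKDH arrays, nothing is read from these counts.

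**Figure D4:**
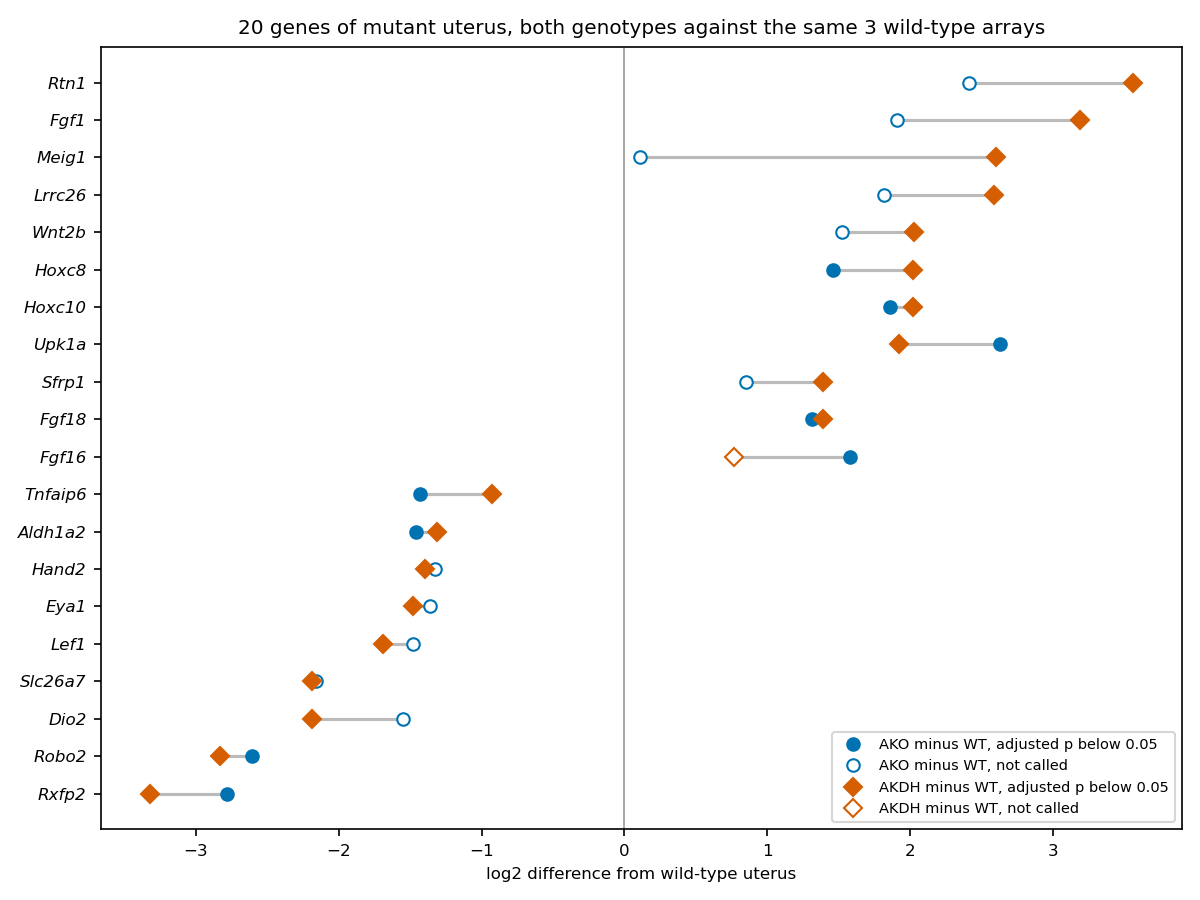
Each row is 1 of 20 genes of the mutant uterus, with the log2 difference from WT of AKO (circles) and AKDH (diamonds), filled where the limma adjusted p is below 0.05. Slc26a7 (-2.16 and -2.19) and Fgf18 (1.31 and 1.39) have nearly the same value in both, whereas Meig1 and Fgf1 are further from WT in AKDH and Fgf16 is nearer to it.

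Signalling lists around these genes held no call, and their medians lay near that of all genes (-0.02). The 26 FGF ligands and receptors had a median of 0.00, with Fgfr2, a receptor of epithelia, at 0.52 (SE 0.13, limma adjusted p = 0.227) and no overlap. The 19 Wnt ligands had a median of -0.02 (0.09 with the small RNA mean in the fit) and the 39 Wnt receptors, inhibitors and feedback genes one of -0.11. In that list the R-spondin receptor Lgr4 was higher (0.51, SE 0.17) and the Frizzled receptors Fzd3 (-0.43) and Fzd8 (-0.45) were lower, all 3 without overlap. Wnt11 was higher by 1.28 (SE 0.48) with overlapping groups, and by 0.85 without AKDH replicate 1. The 18 retinoic acid genes had a median of -0.03, with the receptor Rara at -0.40 (SE 0.12) and Rarb at 0.56 (SE 0.25), both without overlap. The 15 relaxin family, Robo and Slit genes had a median of -0.13, which was 0.01 with the small RNA mean in the fit. In it the hormone gene Rln1 was at 0.79 (SE 0.23, no overlap), Insl6 at 1.21 (SE 0.48; 0.75 without AKDH replicate 1) and Robo1 at -0.85 (SE 0.31). The 40 BMP and TGF-beta genes had a median of 0.00 and the 13 hedgehog genes one of -0.07. Without AKDH replicate 1 the medians of these lists were 0.12 (BMP and TGF-beta) and 0.04 (hedgehog). They were then -0.03 for the FGF list, -0.03 for the Wnt receptor list, -0.09 for the retinoic acid list and -0.05 for the relaxin, Robo and Slit list.

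The genes with the largest differences were much higher in AKDH replicates 1 and 3 than in replicate 2, and they were picked after their values were seen. Olah, a thioesterase of fatty acid synthesis, was -0.37, -0.27 and -0.15 in AKO and 4.06, 0.00 and 4.18 in AKDH, a difference of 3.01 (SE 0.86, limma adjusted p = 0.254). AKDH replicates 1 and 3 were thus high and replicate 2 was at the middle of the female arrays. Cyp2j11 (3.65, 0.03 and 3.25), a cytochrome P450, Acbd7 (2.71, 0.00 and 3.08), an acyl-CoA-binding protein, and Ano2 (3.60, 1.01 and 3.34), a calcium-activated chloride channel, were also highest in replicates 1 and 3. St6gal2, a sialyltransferase (3.18, 0.97 and 2.51), and Meig1 (3.10, 0.51 and 2.15) had that pattern too, although the lowest AKDH value of St6gal2 was still above the 12 other uterus arrays (at most 0.25). WT replicate 3 was above the other WT arrays for Olah (0.87), Cyp2j11 (1.90) and Ano2 (1.68), so high values of these genes were not limited to a mutant. Without AKDH replicate 2, Acbd7, Olah, St6gal2, Ano2 and Meig1 passed the limma test. That array was the low one in genes picked for this pattern, so nothing is read from it.

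Genes with the largest lower values included products of the uterine epithelium. Prap1, a secreted protein of that epithelium, was 1.45, 1.63 and 0.97 in AKO and -1.09, -0.18 and 0.00 in AKDH, a difference of -1.77 (SE 0.67, limma adjusted p = 0.379). Its WT values (2.21, 1.19 and -0.87) overlapped both groups. Bpifb5, a secreted BPI-fold protein, was -0.02, 0.43 and 0.71 in AKO and -1.04, -1.04 and -1.02 in AKDH, and here AKDH lay below every WT array (0.16 to 2.12) as well. It fell against WT by 2.35 (adjusted p = 0.0162) and differed from AKO by -1.41 (SE 0.48, adjusted p = 0.324). Sftpd, the surfactant protein D of innate defence, differed by -1.54 (SE 0.53), Lrat, which esterifies retinol, by -1.69 (SE 0.79), the mucosal chemokine gene Ccl28 by -1.35 (SE 0.61) and the Y RNA gene Rny1 by -1.43 (SE 0.56). With the small RNA mean in the fit Lrat and Rny1 were both at 0.16. Ly6g, the neutrophil surface marker, was lower by -1.24 (SE 0.38), while other myeloid genes were higher, Ccl6 by 0.62 (SE 0.26, no overlap) and Retnlg by 1.52 (SE 0.67). The 20 neutrophil and eosinophil genes had a median of 0.12, and of -0.17 with the small RNA mean in the fit.

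Marker lists of the cell types of the organ held 0 calls in every list, and the counts below are descriptions beside the share of all genes. Of all genes 42.9% lay above 0, so most genes of any kind lay below it. Of 20 endothelium and pericyte genes, 16 lay below 0 (median -0.30), and 7 (35%) were lower without overlap, against 7.75% of all genes. The 7 included Cdh5, the VE-cadherin of endothelial junctions (-0.57, SE 0.23), and Flt1, Tie1 and Egfl7 (-0.43, -0.40 and -0.45). Flt1 was at -0.19 without AKDH replicate 1. Cdh5 was 0.14, 0.58 and 0.00 in AKO and -0.58, -0.20 and -0.22 in AKDH. The other 4 genes of the list lay above 0, the highest at 0.70. The list means of the arrays still overlapped (0.10, 0.44 and 0.12 in AKO, -0.36, 0.15 and 0.22 in AKDH), and without AKDH replicate 1 the list median was -0.14 and 13 of 20 lay below 0. Then 8 (40%, against 15% of all genes) were lower without overlap and 3 (15%, against 11.1%) higher. The smooth muscle list (26 genes, median -0.05) and the stroma list (22 genes, median -0.08) had medians of 0.38 and 0.05 without that array. Of the smooth muscle genes 0 were higher without overlap with all arrays, and 15 (57.7%, against 11.1% of all genes) without that array. The 21 uterine gland genes had 16 below 0 (median -0.19) and 4 lower without overlap (19%), and their median was -0.03 with the small RNA mean in the fit. Lif, the gland cytokine that permits implantation, was 0.62, 0.36 and 0.35 in AKO and -0.19, -0.01 and 0.33 in AKDH, a difference of -0.40 (SE 0.13). The chemokine gene Cxcl14 differed by -0.95 (SE 0.33). Sox17 was among the 5 gland genes above 0, at 0.52 (SE 0.30) with overlapping groups. The 23 luminal epithelium genes had a median of -0.05, and of -0.30 without AKDH replicate 1. Of these genes 2 (8.7%) were lower without overlap with all arrays, and 11 (47.8%, against 15% of all genes) without that array.

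Basal keratins were high in AKDH replicates 1 and 2 and not in replicate 3. Krt5 was 0.65, -0.17 and 2.57 in AKO and 4.95, 3.94 and 0.52 in AKDH, and its difference of 2.12 (SE 0.96, limma adjusted p = 0.477) was smaller than the gap between the highest and lowest array of either group. Krt14 (2.50, 1.46 and 0.00), Krt15 (3.62, 2.03 and -0.17), Krt13 (2.23, 1.04 and -0.20), the basal cell factor gene Trp63 (1.14, 0.49 and -0.08) and the desmosomal Dsc3 (1.48, 0.76 and 0.00) had the same order in AKDH. Krt5 was also high in AHDK (2.40, 1.16 and 2.25). Without AKDH replicate 1 the differences were 1.21 (Krt5), 0.57 (Krt14), 0.60 (Krt15), 0.27 (Krt13), 0.21 (Trp63) and 0.32 (Dsc3), each smaller than with all arrays (1.16 for Krt14, 0.87 for Krt13, 0.52 for Trp63 and 0.68 for Dsc3). Krt17 alone of those named here was higher in all 3 AKDH arrays (0.99, 1.29 and 0.38, against -0.63, -0.55 and -0.01 in AKO), by 1.28 (SE 0.27, limma adjusted p = 0.19), and AHDK lay at 1.24, 0.77 and 0.82. The order of the arrays differs from that of Olah, for which replicates 1 and 3 were high. The urothelium list had array means of 0.13, 0.15 and 0.27 in AKO and 1.18, 0.44 and 0.02 in AKDH, and its median difference of 0.18 was 0.01 without AKDH replicate 1. The keratin list of 22 genes had a median of 0.11, and of -0.03 without that array. Whether these arrays held more squamous or basal epithelium was not tested.

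Genes of the hormonal and cell cycle differed among the arrays of each group. All 26 oestrogen-responsive genes lay below 0 (median -0.33), and 2, Greb1 and Padi1, were lower without overlap (7.69%), a share near that of all genes (7.75%). Their array means were 0.45, 0.02 and 0.27 in AKO and 0.01, 0.07 and -0.61 in AKDH, so AKDH replicate 3 was the lowest and replicate 2 overlapped AKO. Greb1 and Padi1 differed by -0.56 (SE 0.29) and -0.91 (SE 0.54). Without AKDH replicate 1 the list median was -0.48 and 25 of the 26 genes lay below 0. Then 6 (23.1%, against 15% of all genes) were lower without overlap. Of 31 cell cycle genes, 29 lay below 0 (median -0.34) and 0 were without overlap, since the array means ran from -0.48 to 1.17 in AKO and from -0.90 to 0.34 in AKDH. Pcna and Mcm6, genes of DNA replication, differed by -0.46 (SE 0.22) and -0.66 (SE 0.42). Without AKDH replicate 1 all 31 cell cycle genes lay below 0 (median -0.50), and again 0 were without overlap. Of the 20 progesterone-responsive genes, 14 lay above 0 (median 0.13, and 0.28 without AKDH replicate 1), with Acod1 at 1.39 (SE 0.59). Adipocyte genes had a median of -0.31 over 19 genes, with Car3 at -2.19 (SE 1.62), whose AKDH values were 2.54, -2.91 and -2.51. With all arrays 1 of the 19 genes (5.26%) was lower without overlap, against 7.75% of all genes. AKDH replicate 1 was the high AKDH array for this list (0.81, against -0.33 and -0.33). Without it Car3 was at -3.94 and the list median at -0.43. Then 11 of the 19 genes (57.9%, against 15% of all genes) were lower without overlap. Hsph1, a heat shock protein gene, was lower without overlap (-0.93, SE 0.29), and the matrix gene Timp3 was higher (0.62, SE 0.16).

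Most small RNA genes lay below 0, and so did most of all genes, of which 42.9% lay above 0. Of 360 genes of microRNAs, snoRNAs and other small nuclear or ribosomal RNAs, 253 lay below 0 (median -0.06), and 62 (17.2%) had an unadjusted p below 0.05 in the lower direction, against 5.59% of all genes. Their array means were 0.13, 0.18 and 0.02 in AKO and -0.01, -0.07 and -0.07 in AKDH, without overlap. WT lay higher (0.28, 0.20 and 0.23), and DKO (-0.02, 0.04 and -0.05) and AHDK (-0.07, 0.06 and -0.02) overlapped both AKO and AKDH. Snord47, chosen after its values were seen, was one of the 22 genes separated in both tissues (uterine means 1.10 in WT, 0.21 in AKO and -0.54 in AKDH). With the mean of these genes in the fit, 809 genes had an unadjusted p below 0.05 in place of 2063, and 0 were called. Since that mean itself separated AKO from AKDH, this fit cannot tell genotype from small RNA level. The part of the small RNA level in the other differences was not tested further.

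**Figure D5:**
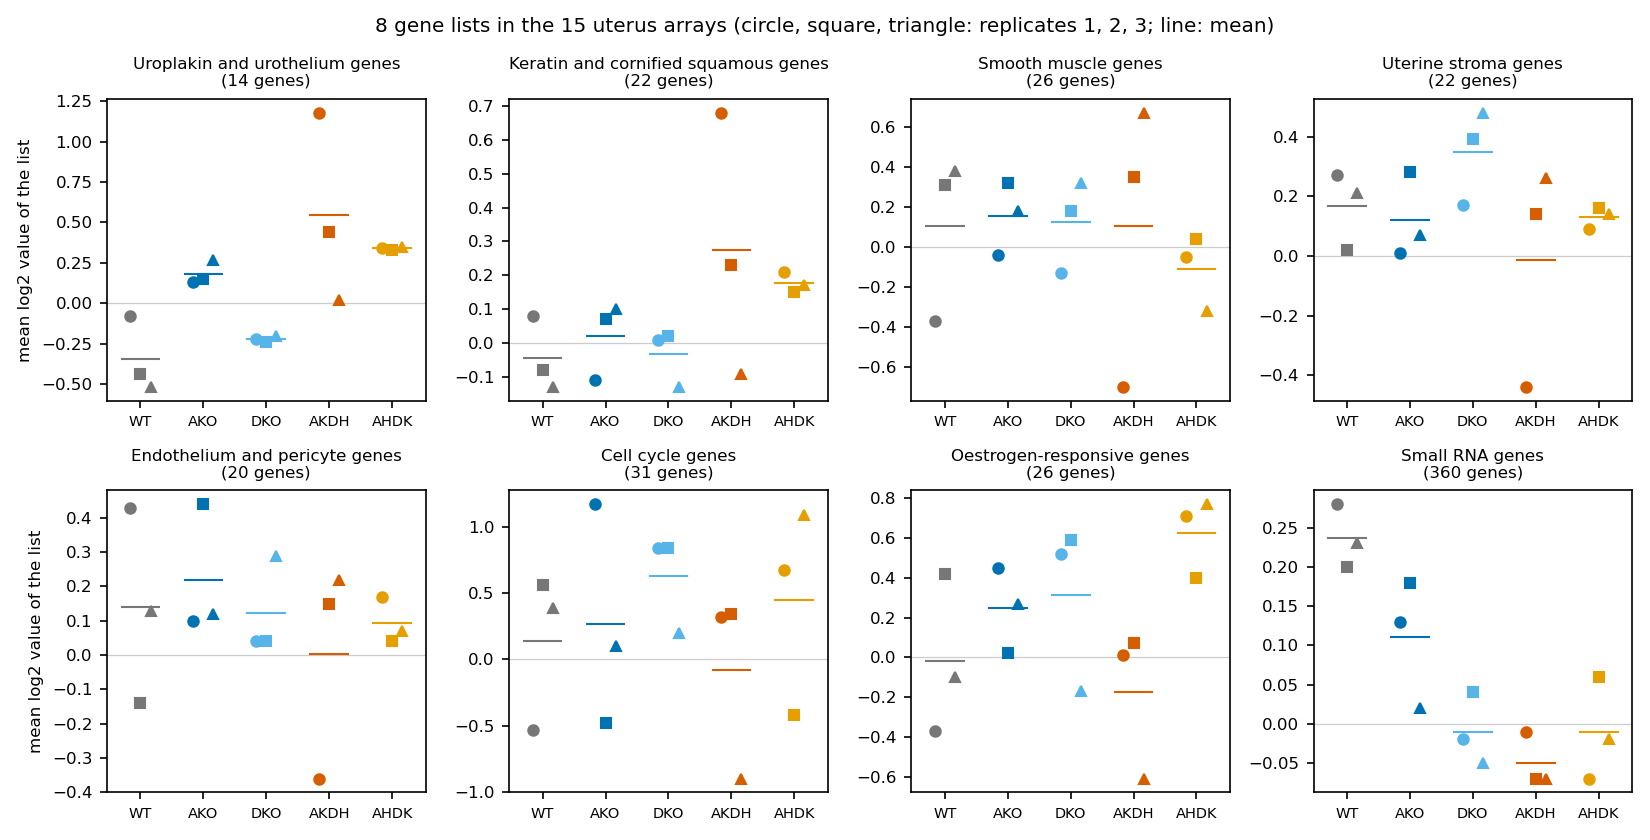
Each panel shows the mean log2 value of a gene list in each of the 15 uterus arrays by genotype, with circles, squares and triangles for replicates 1, 2 and 3 and a line for the mean. AKDH replicate 1 is highest for the urothelium list (1.18) and lowest for smooth muscle (-0.70), and the small RNA list is above 0 in all WT and AKO arrays.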

How the data were processed

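RNA of 42 arrays of mouse reproductive tract was measured on Affymetrix whole-transcript arrays, from 300 ng of total RNA of fresh tissue, per the labels' protocols. The deposited table holds log values of 28856 probe sets, read here as log2. The median of each probe set was 0 over the 21 female and also over the 21 male arrays, so absolute signal is lost and no filter on dim probe sets was possible. For log base, summarisation, normalisation and build the sources used here give nothing. A higher value was read as more RNA. Of the probe sets, 21789 had 1 gene symbol, 1621 several and 5446 none, and 21698 matched RefSeq (GRCm38.p6) by gene ID. The mean over the probe sets of a gene gave 19938 genes. Probe sets without 1 symbol (7067 tested) gave 0 calls.

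Limma 3.58.1 in R 4.3.3 fitted 1 mean per genotype over the 15 arrays of a tissue (lmFit, eBayes with default prior), with Benjamini-Hochberg adjustment over 19938 genes and a call at an adjusted p below 0.05. The fit was tested on simulated data. Nothing states that arrays of a group come from separate litters or days, so p-values rest on the spread among these 3 arrays a group, and that number limits the precision. Alternatives were other sets of arrays, quantile normalisation, median centring, single probe sets, a filter on spread, a robust prior, array weights, a replicate block, a small RNA covariate, other thresholds and leaving out each array.

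Named genes were the 6 targeted genes, the 12 with the smallest p in each direction since fewer than 10 were called (unnamed transcripts, olfactory receptors and small RNAs passed over), up to 4 per list with the smallest p, and all of the list of genes changed against WT. Genes with the largest differences, further list members and genes of the Hoxd copy were chosen after their values were seen. The members and lists were chosen with earlier results of these data known.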

Additional observations from a re-analysis of the deposited data

Results flagged for a closer look

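Of 98 named genes, 4 stood apart in opposite directions in the 2 tissues, with all AKDH arrays above all AKO arrays in uterus and below them in vas deferens. The difference between the tissues was not tested. Thsd7b differed by 0.74 in uterus and -0.26 in vas deferens. Acbd7 differed by 2.20 and -0.48. Rln1, a relaxin gene, differed by 0.79 and -0.22. Acod1, the enzyme that makes itaconate, differed by 1.39 and -0.13. Over all 19938 genes, 100 stood apart in opposite directions and 626 in the same direction. Of the 1023 genes higher without overlap in uterus, 53 (5.18%) were lower without overlap in vas deferens, against 14.3% of all genes. Many of the 98 genes were named for their uterine values, so nothing is read from the count of 4. In vas deferens Thsd7b (limma adjusted p = 0.2), Rln1 (0.108) and Acod1 (0.549) were not called.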

How the results depend on the processing

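The count of 0 genes between AKDH and AKO uterus stayed 0 with the 6 arrays alone, probe sets tested singly, a robust prior, array weights, the small RNA covariate, a log2 difference of at least 1 and an adjusted p below 0.1. It was 5 with all 21 female arrays, 10 with quantile normalisation, 1 (Thsd7b) with array medians subtracted, 1 (Vsnl1) among the genes of larger spread and 4 with the replicate block, and between 0 and 167 without 1 array. Leaving out AKO replicate 3 gave 167, AKDH replicate 2 gave 32 and AKDH replicate 3 gave 4. The replicate numbers of AKO and AKDH uterus did not pair the arrays: deviations of equal numbers correlated at 0.23, -0.10 and -0.02 over genes, and AKDH replicate 3 correlated best with AKO replicate 2 (0.43). AKO against WT (18) gave 1 with 6 arrays, 86 with 21 arrays, 63 with probe sets tested singly, 43 in the genes with the larger spread, 8 with the small RNA covariate, 10 at a log2 difference of at least 1, 92 at an adjusted p below 0.1, 15 with the replicate block, and 2 to 40 without 1 array. AKDH against WT (1311) gave 82 with 6 arrays, 837 with quantile normalisation, 1 with the covariate, 250 at a log2 difference of at least 1, 2420 at an adjusted p below 0.1, and 530 to 1207 without 1 array. Vas deferens (258) gave 0 with 6 arrays, 484 with quantile normalisation, 86 in the larger-spread genes, 1021 with array weights, 141 with the replicate block, 140 with the covariate, 7 at a log2 difference of at least 1, 569 at an adjusted p below 0.1, and 52 to 240 without 1 array. Array values of the small RNA covariate did not overlap between AKO and AKDH, so fits with it cannot separate it from genotype. The small RNA covariate turned Hoxa10 to -0.10, Hoxa11 to 0.11, Robo2 to 0.09, Upk1a to 0.07, Eya1 to 0.07, Hand2 to 0.08, Slc26a7 to 0.81, Lrat to 0.16 and Rny1 to 0.16. It moved list medians of Hox cofactors to -0.12, Wnt ligands to 0.09, relaxin, Robo and Slit genes to 0.01, patterning factors to 0.01, gland genes to -0.03, neutrophil genes to -0.17, B and plasma cell genes to -0.16, the 20 genes changed against WT to 0.22 and small RNA genes to 0.01. The larger-spread genes moved relaxin, Robo and Slit genes to -0.30, nerve genes to 0.14 and small RNA genes to -0.25. Array weights turned Hoxa9 to 0.15, Hoxa11 to 0.05, Hoxd10 to 0.11 and Hand2 to 0.09, and quantile normalisation turned Hand2 to 0.10 and Slc26a7 to 0.11. Without 1 array, directions turned within the ranges of Hoxa9 (-0.48 to 0.45), Hoxa10 (-0.34 to 0.68), Hoxa11 (-0.77 to 0.36), Hoxd9 (-0.49 to 0.12), Hoxd10 (-0.43 to 0.34), Fgf18 (-0.04 to 0.17), Hoxc10 (-0.19 to 0.56), Hand2 (-0.30 to 0.22) and Slc26a7 (-0.11 to 0.03), and the medians of Wnt ligands (-0.05 to 0.07) and complement genes (-0.12 to 0.04) moved. The causes were not tested. Signal over background is unknown after centring.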
